A study of Mus musculus with 4 samples.

Results

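The 10 genes described here encode inflammasome sensors, the adaptor and proteases they recruit, the pore protein they open, and the cytokines released by this route. They were Nlrp6, Nlrp3, Nlrp12, Pycard, Casp1, Casp4, Gsdmd, Il18, Il1a and Il1b, 10 of 46603 genes counted. The list was drawn up because Nlrp6 was lower in the comparison below, so the members' differences between groups are a description, and where a count of members past a threshold is given, nothing is read from it. Liver RNA came from 4 male mice carrying floxed alleles of HuR (Elavl1) on both chromosomes (HuR flox/flox, C57BL/6 J), all given an AAV8 virus by tail vein and then fed a Western diet with fructose and glucose in the drinking water (WDSW) for 4 weeks. The 2 Control mice (mice 1 and 2) received AAV8-TBGP-GFP, and the 2 HuR hKO mice (mice 3 and 4) received AAV8-TBGP-Cre, so that the viruses differed in their cargo and in their supplier. The thyroxine-binding globulin promoter (TBGP) is active in hepatocytes, so Kupffer cells, endothelial cells and other cells of the liver keep HuR, an RNA-binding protein that attaches to AU-rich stretches of many mRNAs. The ages of the mice were not given in the sources used here beyond being matched, and the labels give no batch.

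An inflammasome forms when a cytosolic sensor of the NLR family meets a microbial product or a sign of damage and gathers the adaptor ASC, the product of Pycard. ASC brings together caspase-1, which cuts the precursors of interleukin 1 beta and interleukin 18 into their active forms and cuts gasdermin D, whose free fragment makes pores in the cell membrane. In the liver this machinery is best known from Kupffer cells and infiltrating myeloid cells, while NLRP6 is known chiefly from the intestinal epithelium and is also made in the liver. Interleukin 1 alpha is active without cutting, and caspase-11 (mouse gene Casp4) responds to bacterial lipopolysaccharide directly.

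The sequences before the start sites of the 3 sensors and of Il1b are shown because the results turn on the sensors, and Il1b, the cytokine the pathway is named for, is the contrast. Each is the 250 bases upstream of the RefSeq start (GRCm38.p6), read 5′ to 3′ on the strand of the gene, with a matched motif in capitals. Nlrp6 is chr7:140920652-140920901 on the plus strand, Nlrp3 chr11:59541319-59541568 on the plus strand, Nlrp12 chr7:3249741-3249990 on the minus strand, and Il1b chr2:129371140-129371389 on the minus strand.
Nlrp6: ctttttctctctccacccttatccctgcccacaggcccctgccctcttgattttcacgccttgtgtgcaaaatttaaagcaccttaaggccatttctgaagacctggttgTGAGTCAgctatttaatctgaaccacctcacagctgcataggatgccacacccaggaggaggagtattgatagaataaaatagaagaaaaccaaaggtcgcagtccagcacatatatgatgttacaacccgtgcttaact
Nlrp3: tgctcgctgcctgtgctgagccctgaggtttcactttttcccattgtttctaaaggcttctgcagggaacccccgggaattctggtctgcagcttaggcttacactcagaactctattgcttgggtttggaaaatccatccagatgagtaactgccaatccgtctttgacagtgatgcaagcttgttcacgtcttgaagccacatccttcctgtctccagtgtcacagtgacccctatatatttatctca
Nlrp12: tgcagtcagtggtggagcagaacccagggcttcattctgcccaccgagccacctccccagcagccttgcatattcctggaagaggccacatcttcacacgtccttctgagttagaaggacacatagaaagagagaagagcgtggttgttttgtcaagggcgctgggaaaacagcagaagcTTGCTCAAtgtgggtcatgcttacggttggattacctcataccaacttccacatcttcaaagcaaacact
Il1b: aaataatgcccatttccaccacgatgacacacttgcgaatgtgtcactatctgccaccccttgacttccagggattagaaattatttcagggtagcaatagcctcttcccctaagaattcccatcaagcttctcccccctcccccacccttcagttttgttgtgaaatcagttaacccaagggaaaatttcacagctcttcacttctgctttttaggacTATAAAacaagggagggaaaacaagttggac
The capitals mark an AP-1 site in Nlrp6, a C/EBP site in Nlrp12 and a TATA box in Il1b, and none of the 7 motifs searched was in the Nlrp3 window. The AP-1 letters TGANTCA began 140 bases before the start of Nlrp6 and 12 bases before that of Il1a, and they occur on either strand in 6.75% of 32817 promoter windows of this length. TATAAA began 31 bases before Il1b, 32 before Il1a and 175 before Il18, against a share of 12.4% of all windows. The C/EBP letters TTGCNNAA were found before Nlrp12 and Pycard (9.57% of windows). An NF-kB motif (GGG, then any 3 bases, then TTCC) was found 3 times before Casp4 (4.65%), the HNF1 half-site GTTAAT in 2 places before Il18 (6.44%), where 1 copy directly follows the TATAAA, both read on the other strand, and the E-box CACGTG before Casp1 (6.02%). AGGTCA was in none of the 9 members with a window and in 14.0% of all windows. A match gives the position of the letters only, and Gsdmd is named without a window.

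The libraries held between 13032095 and 19715577 counts on genes. The largest, from HuR hKO mouse 4, had 1.51 times the counts of the smallest. Values are CPM, counts scaled to a common library size with TMM factors, and levels of different genes are compared only as TPM, which also divides by exon length. The targeted gene went against its label: Elavl1 stood at 27.1 ± 1.74 CPM in the Control mice and 36.1 ± 2.36 CPM (SD, n = 2 each) in the mice labelled HuR hKO, which is 0.41 higher on the log2 scale (SE 0.135, adjusted p = 0.545, edgeR's quasi-likelihood test). By its own assays, the study reported reduced HuR mRNA and protein in HuR hKO livers, and loss of HuR from hepatocytes by immunofluorescence. The counts do not show which exons the reads came from. Every direction given below is therefore that of the libraries labelled HuR hKO against the Control libraries. Of 13001 genes that passed the filter on low counts, 3 had an adjusted p below 0.05 (0.0231%).

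Nlrp6 (ENSMUSG00000038745, chr7:140920902-140929192, plus strand, GRCm38) was the member with the widest difference relative to its spread. It had 2381 and 2363 counts in the Control mice and 1189 and 1762 in the mice labelled HuR hKO, which came to 179 and 176 CPM against 83.0 and 93.5 CPM. Both Control values lay above both HuR hKO values. The means were 178 ± 1.96 and 88.2 ± 7.49 CPM (SD, n = 2 each), the log2 fold change was -1.01 with an SE of 0.131, and the level in the libraries labelled HuR hKO was 50.3% lower. In bulk tissue, fewer cells of a type and less RNA per cell cannot be told apart. Among the 13001 genes tested, 136 had a lower log2 fold change than Nlrp6, and 1.06% had one of -1 or lower. Among the 1065 with a mean CPM at least as high as that of Nlrp6, 4 did, namely Hpx (hemopexin, a plasma protein that binds heme), Mup15 and Mup17 (major urinary proteins, whose near-identical copies make their counts uncertain) and Serpina4-ps1, whose groups overlapped. Nlrp6 was chosen for being lower, so its place among the genes is a description and adds no support to the difference.

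Nlrp12 (ENSMUSG00000078817, chr7:3218784-3249740, minus strand), a sensor described mainly as a brake on NF-kB signalling, did not share this pattern. Its counts were 576 and 412 in the Control mice and 515 and 1108 in the mice labelled HuR hKO, or 43.4, 30.8, 35.9 and 58.8 CPM. The groups overlapped, mouse 4 alone was high, and the log2 fold change of 0.36 (SE 0.248) became -0.04 without that mouse. Nlrp3 (ENSMUSG00000032691, chr11:59541568-59566956, plus strand), the best studied sensor of damage, had few counts. It had 2 and 9 counts in the Control mice and 14 and 9 in the others, at most 0.977 CPM, and it did not pass the filter on low counts. The groups overlapped, Control mouse 1 alone was low, and the difference was not fitted. A count of 0 would allow between 0.152 and 0.23 CPM in these libraries, for counting error only.

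The adaptor gene Pycard (ENSMUSG00000030793, chr7:127989708-127993867, minus strand) had 11 and 12 counts in the Control mice and 20 and 23 in the mice labelled HuR hKO, or 0.828, 0.896, 1.40 and 1.22 CPM. The groups did not overlap, with HuR hKO higher, but the log2 fold change of 0.59 was little more than its SE of 0.449. Casp1 (ENSMUSG00000025888, chr9:5298517-5307265, plus strand), the protease of the complex, had 18 and 23 counts against 27 and 18, so the groups overlapped and the log2 fold change was -0.14 (SE 0.465). Its sign turned to 0.29 without mouse 4 and to 0.04 without mouse 2. Casp4 (ENSMUSG00000033538, chr9:5308828-5336783, plus strand) begins 1562 bases past the end of Casp1 on the same strand. It had 15 and 9 counts in the Control mice against 16 and 23, with Control mouse 1 inside the range of the other group, and a log2 fold change of 0.38 (SE 0.484) that became 0.78 without Control mouse 1 and 0.06 without Control mouse 2. Casp1, Casp4, Pycard, Nlrp3 and Il1b were the 5 members with fewer than 30 counts in every library, and counting error alone is wide for them.

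Gsdmd (ENSMUSG00000022575, chr15:75862327-75867408, plus strand), which encodes the pore protein, was well measured, with 381 and 425 counts in the Control mice and 518 and 674 in the mice labelled HuR hKO. These were 28.7 and 31.7 CPM against 36.1 and 35.8 CPM. Both HuR hKO values lay above both Control values, with means of 30.2 ± 2.16 and 36.0 ± 0.251 CPM (SD, n = 2 each) and a log2 fold change of 0.25 (SE 0.132).

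Of the cytokines, Il18 (ENSMUSG00000039217, chr9:50554827-50581840, plus strand) lay at the same level in both groups within its spread, at 5.42 and 4.78 CPM in the Control mice and 5.02 and 5.52 CPM in the others, with a log2 fold change of 0.05 (SE 0.229). Its gene span, introns included, shares 355 bases with that of Bco2 on the opposite strand. Bco2 had between 341 and 547 counts a library, and because the use of strand was not stated, reads from any exon stretch that both genes share cannot be assigned. The genes Tex12, Gm14023 and Il1bos, opposite Il18, Il1a and Il1b, had at most 8 counts a library. Il1a (ENSMUSG00000027399, chr2:129299610-129309972, minus strand) had 29 and 30 counts in the Control mice and 45 and 44 in the mice labelled HuR hKO, or 2.18, 2.24, 3.14 and 2.34 CPM. The groups did not overlap, although mouse 4 was barely above the Control mice, and the log2 fold change of 0.30 (SE 0.331) became 0.06 without mouse 3 and 0.50 without mouse 4. Il1b (ENSMUSG00000027398, chr2:129364570-129371139, minus strand), 54597 bases from Il1a, had 8 and 11 counts against 17 and 4. The 2 HuR hKO mice were the highest and the lowest of the 4, and the log2 fold change of -0.10 (SE 0.774) turned to 0.73 without mouse 4.

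**Figure D1:**
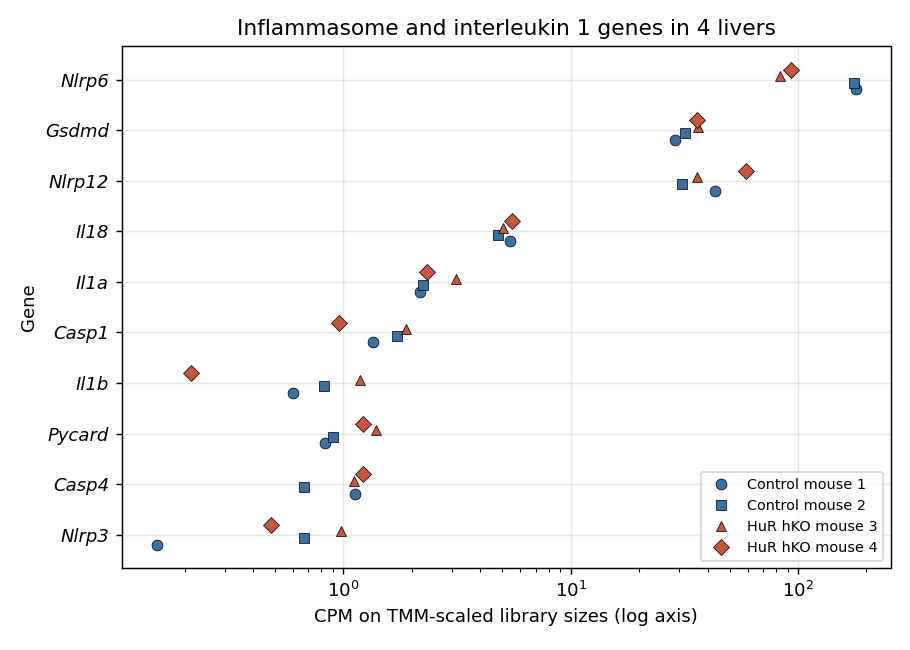
Level of each of the 10 members in each library, with 1 row a gene, CPM on TMM-scaled library sizes on a log axis, and 1 point a mouse (blue for Control, red for HuR hKO). Nlrp6 falls into separate groups at 179 and 176 against 83.0 and 93.5 CPM, while Nlrp12, Casp1 and Il1b overlap.

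Over the 9 members that passed the filter, which is not the whole list, 0 had an adjusted p below 0.05 in edgeR's quasi-likelihood test, against 0.0231% of all genes tested. Nlrp6 alone had an unadjusted p below 0.05 together with a fold of at least 1.8, which 2.12% of all genes had in either direction and 0.915% in the lower direction. Under the alternatives run the count at an adjusted p was 0 or 1, and the 1 was Nlrp6 itself. The list was chosen on this value, so these counts say nothing about how firm it is. Pycard, Gsdmd and Il1a had groups that did not overlap with HuR hKO higher (3 of 9, against 19.3% of all genes) and Nlrp6 had such groups with HuR hKO lower (1 of 9, against 18.8%), where 38.1% of all genes had either. An unadjusted p below 0.05 without a fold limit was found for Nlrp6 alone, and for 7.43% of all genes. The median log2 fold change of the 9 was 0.25, and that of the 8 without Nlrp6 was 0.27, with a range from -0.14 to 0.59, beside a median of 0.00 over all genes tested.

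**Figure D2:**
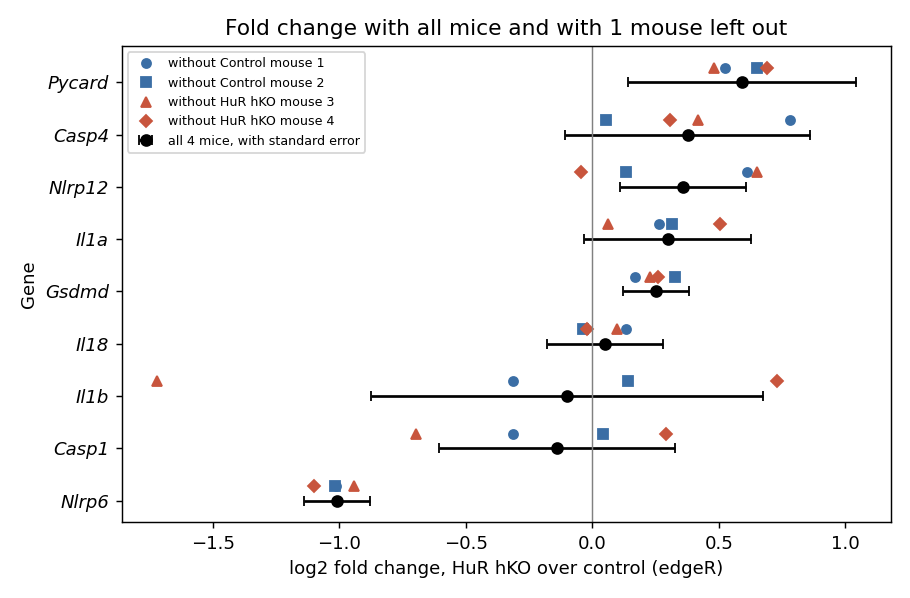
Log2 fold change of the libraries labelled HuR hKO over Control for the 9 members that passed the filter on low counts, from edgeR, with bars of 1 SE and smaller points for the value when 1 mouse is left out. Nlrp6 stays between -1.10 and -0.94, whereas Casp1 and Il1b take both signs.

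Per length, Nlrp6 was the most abundant member in every library. Its TPM was 80.8 and 73.7 in the Control mice and 37.8 and 37.5 in the mice labelled HuR hKO, a mean of 57.4 over the 4 libraries, and 92.8% of the genes with a count had a lower mean TPM. Gsdmd followed at 30.5 TPM, and its highest library (35.2 TPM) was below the lowest of Nlrp6. Nlrp12 at 12.2 TPM and Il18 at 11.02 TPM overlapped each other and lay below Gsdmd in every library. The remaining members were lower still, with Il1a at 2.76, Casp1 at 2.18, Il1b at 0.826, Pycard at 0.626, Casp4 at 0.612 and Nlrp3 at 0.308 TPM, and each of these overlapped its neighbour in the order. By these lengths, the adaptor and the protease genes, which link sensors to the pore protein and to interleukin 18, lay below Nlrp6, Gsdmd, Nlrp12 and Il18. Casp4 was divided by 3710 bases, while its longest transcript has 1901. Pycard was divided by 3800 bases, which is also the length of the longest of its 2 transcripts. Its level by the other transcript was not computed, so its place among the low members is uncertain.

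Within the 21 sensor genes counted together (the 3 members and 18 others), Nlrp6 alone made up 68.2% and 70.3% of the summed TPM in the Control mice and 51.9% and 52.5% in the mice labelled HuR hKO. The sum itself was 118 and 105 TPM in the Control mice and 72.8 and 71.4 TPM in the others. The sum of the 19 sensors other than Nlrp6 and Nlrp12 was 24.6 and 22.5 TPM against 24.04 and 18.01 TPM, which overlapped. The ratio of Nlrp6 to Nlrp12, taken within each library, was 6.14 and 8.52 in the Control mice and 3.43 and 2.36 in the mice labelled HuR hKO. The share, the sum over 21 genes and the ratio all contain Nlrp6, which was chosen for being lower. Their differences between the groups therefore add no support.

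**Figure D3:**
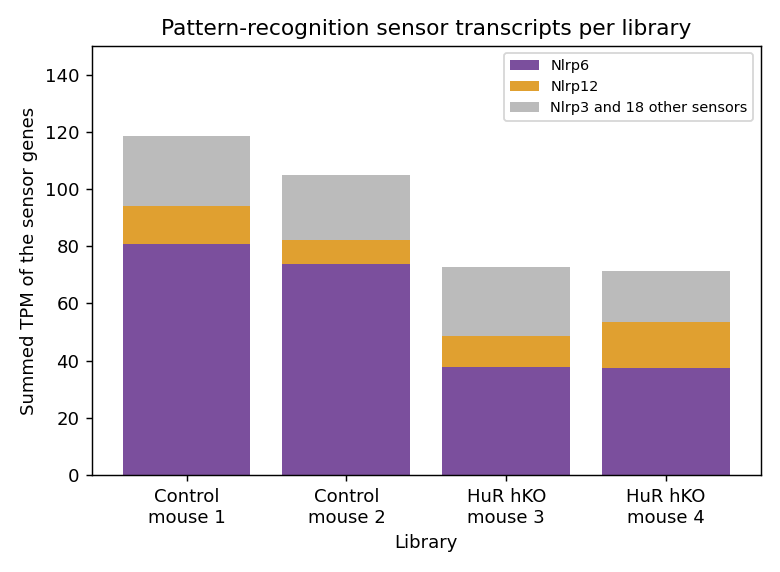
Summed TPM of 21 inflammasome and NLR sensor genes in each library, as stacked bars for Nlrp6, Nlrp12 and the remaining sensors. The bars reach 118 and 105 TPM in the Control mice and 72.8 and 71.4 TPM in the mice labelled HuR hKO, and the Nlrp6 segment holds most of the difference in height.

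The other genes of the pathway were taken from 7 lists ordered by role, with 98 genes in the table, of which 64 passed the filter, 34 did not and 14 had no count in any library. Of the 64, 0 had an adjusted p below 0.05 in edgeR's quasi-likelihood test, the smallest being 0.313, and the DESeq2 Wald test and limma-voom gave 0 as well. At an unadjusted p below 0.05 there were 6 of 64, where the share over all genes was 7.43%. HuR hKO exceeded Control for 4 of them (4.04% of all genes) and was below it for 2 (3.39%). When the scaling, filter or tool changed, this count ran from 2 with the DESeq2 Wald test to 8 without a filter on low counts. Groups that did not overlap were found for 13 of 64 genes with HuR hKO above Control (19.3% of all genes) and 14 with it below (18.8%). The median log2 fold change was -0.03.

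**Figure D4:**
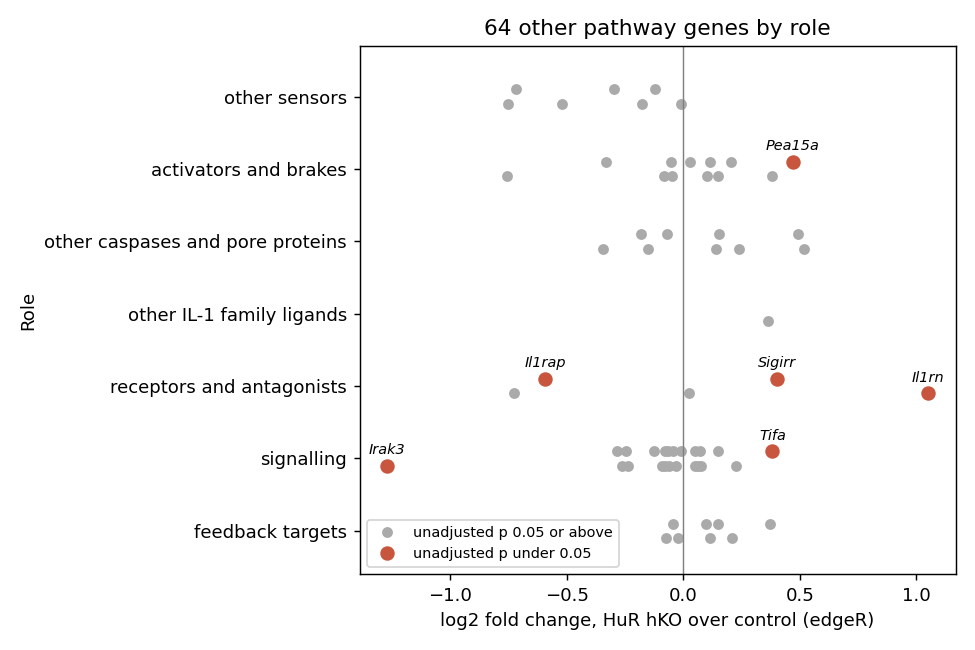
Log2 fold change of the libraries labelled HuR hKO over Control for the 64 pathway genes that passed the filter on low counts, from edgeR, with 1 row for each of the 7 roles and marks for unadjusted p below 0.05. Values lie on both sides of 0 in most rows, and the 7 other sensors lie from -0.75 to -0.01, where 50.3% of all genes tested lay above 0.

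Of the 18 other sensors, 7 passed the filter, and all 7 had a log2 fold change below 0 (median -0.30) without any of them reaching an unadjusted p of 0.05. Over all genes tested, 50.3% had a log2 fold change above 0. Nlrx1, an NLR protein of mitochondria, and Nod1, a sensor of bacterial peptidoglycan, were the most abundant per length at 6.29 and 5.81 TPM. Nlrx1 was at 17.2 and 17.8 CPM in the Control mice and 15.9 and 15.1 CPM in the others, groups that did not overlap, with a log2 fold change of -0.18. Nod1 overlapped, with a log2 fold change of -0.01. Naip2, Naip5 and Naip6, which were among the 7, are close copies of one another, so their split counts are uncertain and their directions are not independent.

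Of 12 tested genes that switch inflammasomes on or hold them back, 1 had an unadjusted p below 0.05, against 7.43% of all genes. That gene was Pea15a. It encodes a small death effector domain protein and stood at 13.6 and 16.1 CPM in the Control mice and 21.7 and 19.6 CPM in the mice labelled HuR hKO (log2 fold change 0.47, SE 0.157, adjusted p = 0.548, edgeR). Hsp90ab1, a chaperone, and Txnip, a thioredoxin-binding protein reported to bind NLRP3, had the highest levels of the list, with 776 and 56.2 TPM. Of the 9 tested caspases and pore proteins other than the members, 0 had an unadjusted p below 0.05 in edgeR's test. Ninj1, which ruptures the membrane of dying cells, was the most abundant at 204 TPM, followed by the apoptotic initiator Casp8 at 22.4 TPM.

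Of the 12 receptor and antagonist genes, 5 passed the filter, and 3 of these, against 7.43% of all genes, had an unadjusted p below 0.05. Il1rap, the accessory chain that several receptors of the interleukin 1 family share, had 2095 and 1766 counts in the Control mice and 1396 and 1780 in the mice labelled HuR hKO, or 158, 132, 97.4 and 94.5 CPM. Both HuR hKO mice lay below both Control mice, and the log2 fold change was -0.59 (SE 0.139, adjusted p = 0.313, edgeR). A gene on the opposite strand, Gm20319, overlaps the span of Il1rap, introns included, over 15672 bases and had between 749 and 1155 counts. Without strand, reads from exon stretches shared by the genes cannot be told apart, and the length of such stretches was not computed. Il1r1, the chain that binds interleukin 1, was at 56.4 and 23.1 CPM in the Control mice and 19.5 and 28.4 CPM in the others, so the groups overlapped and Control mouse 1 alone was high. That library was also high in the duct keratin Krt19 (162 counts, against 5, 7 and 34 in mice 2, 3 and 4) and in the smooth muscle actin gene Acta2 (275 against 60, 66 and 177), and their part in the Il1r1 value was not tested. The log2 fold change of Il1r1 was -0.73 (adjusted p = 0.696, edgeR), and without Control mouse 2 it was -1.23 with an adjusted p of 0.0385, the only call for a pathway gene among the alternatives run.

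Il1rn, which encodes the receptor antagonist that blocks interleukin 1, went the other way. It was at 1.43 and 2.76 CPM in the Control mice and 3.63 and 5.04 CPM in the mice labelled HuR hKO, groups that did not overlap (log2 fold change 1.05, SE 0.373, adjusted p = 0.574, edgeR). Without Control mouse 1 the log2 fold change was 0.65, and without Control mouse 2 it was 1.61. Sigirr, a receptor-like protein that dampens interleukin 1 signalling, was at 16.3 and 13.7 CPM against 20.5 and 19.2 CPM (log2 fold change 0.40, SE 0.156, adjusted p = 0.611, edgeR). It lies on chromosome 7, 161983 bases from Nlrp6, and differed in the opposite direction. Il1rap and Sigirr were the most abundant of this list, at 23.3 and 12.6 TPM. Per length, the ratio of Il1rn to Il1a and Il1b together was 0.182 and 0.319 in the Control mice and 0.296 and 0.704 in the others, which overlapped. Il1rn was divided by 5535 exon bases, while its longest transcript has 2554, so the size of this ratio depends on the length used. Of the other ligands of the family, only Il33 passed the filter, at 1.03 TPM, 4 had no count, and Il1f9 was at 0.249 TPM.

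**Figure D5:**
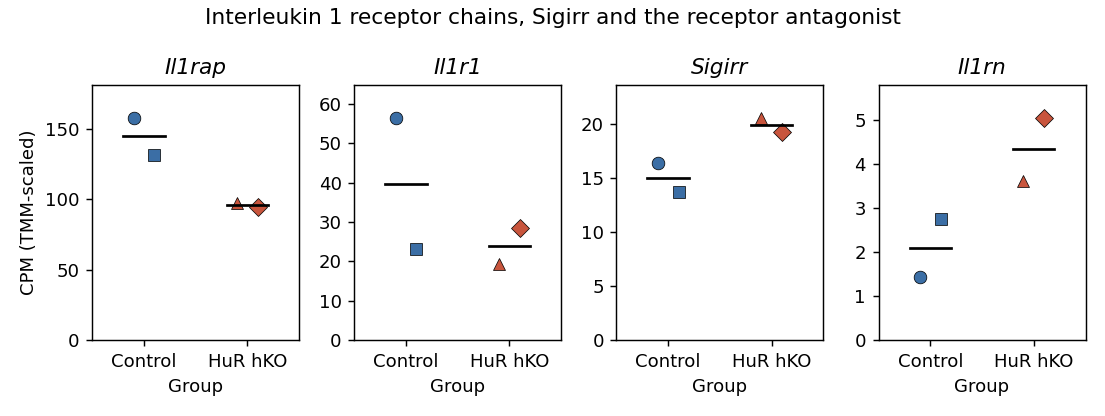
CPM of Il1rap, Il1r1, Sigirr and Il1rn in each library, with points for mice 1 (circle), 2 (square), 3 (triangle) and 4 (diamond) and a line at each group's mean. Il1rap is lower (97.4 and 94.5 against 158 and 132 CPM) and Il1rn higher (3.63 and 5.04 against 1.43 and 2.76 CPM) in the libraries labelled HuR hKO, and Il1r1 overlaps because Control mouse 2 lies among them.

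All 22 genes of the signalling list passed the filter, from the receptor adaptor to the NF-kB subunits, and 2 of the 22 had an unadjusted p below 0.05, where the share over all genes was 7.43%. Irak3, a kinase-like brake of macrophages, was at 1.05 and 1.72 CPM in the Control mice and 0.488 and 0.637 CPM in the others, from 7 to 23 counts a library (log2 fold change -1.27, SE 0.515, adjusted p = 0.633, edgeR). Tifa, an adaptor that binds TRAF6, was at 9.71 and 10.1 CPM against 12.9 and 12.9 CPM (log2 fold change 0.38, SE 0.162, adjusted p = 0.653, edgeR). The kinase gene Chuk at 56.0 TPM and the NF-kB subunit Rela at 38.3 TPM were the most abundant. Of the 8 feedback targets of NF-kB that passed the filter, 0 had an unadjusted p below 0.05 in edgeR's test, and the inhibitors Nfkbia and Nfkbib led them at 79.2 and 20.5 TPM.

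Markers of the cells that carry inflammasomes were read beside these values. The 12 Kupffer cell markers summed to 340 and 353 CPM in the Control mice and to 405 and 360 CPM in the mice labelled HuR hKO, with groups that did not overlap and 6 of the 12 genes higher without overlap (19.3% of all genes). The other 6 overlapped, among them Marco, a scavenger receptor, and Adgre1, which encodes F4/80, with log2 fold changes of -0.92 and -0.20. Slc40a1, the iron exporter gene that made up the largest part of the sum, was at 101 and 107 CPM in the Control mice and 128 and 98.9 CPM in the others. C1qa, a complement gene, was the most abundant per length at 81.9 TPM. The 10 markers of monocytes and macrophages summed to 14.8 and 13.4 CPM against 24.4 and 16.6 CPM. Cd9, the largest part of each sum, was at 8.58 and 6.42 CPM in the Control mice and 14.4 and 8.97 CPM in the others. Of the 7 that passed the filter, 3 were higher without overlap (19.3% of all genes) and 0 lower (18.8%). Pycard, Gsdmd and Il1a differed in the same direction as the Kupffer cell and the monocyte and macrophage sums. Nlrp3, Nlrp12, Casp1, Casp4, Il18 and Il1b overlapped between the groups, and Nlrp6 was lower. The part of these cells in the members' values was not tested. Neutrophil markers summed to 2.26 and 2.46 CPM in the Control mice and 2.02 and 1.54 CPM in the mice labelled HuR hKO. The HuR hKO sums were lower without overlap, but counts were few, with Ly6g and Camp at 0 in all 4 libraries. Csf3r, the largest part of each sum, had 20 and 22 counts in the Control mice and 12 and 20 in the others. S100a8 went the other way, at 1 and 1 counts against 3 and 5, and S100a9 overlapped. The endothelial markers summed to 218.5 and 195.7 CPM against 248.6 and 218.9 CPM, and those of dendritic cells, T and NK cells, B cells, stellate cells and cholangiocytes overlapped between the groups. The hepatocyte markers, led by Alb, summed to 84480 and 81230 CPM in the Control mice and 76760 and 87520 CPM in the others, so they overlapped. Alb, the largest part of each sum, was at 43500 and 40980 CPM against 41500 and 45370 CPM. Of the 12 hepatocyte markers, 3 were lower without overlap (18.8% of all genes) and 1 higher (19.3%). The part of hepatocyte number in the Nlrp6 values was not tested. The 9 intestinal markers, led by Fabp2, summed to 148 and 232 CPM against 188 and 261 CPM, with the intestinal factors Cdx1 and Cdx2 at 0 in all libraries. Fabp2 alone was at 123 and 198 CPM in the Control mice and 170 and 242 CPM in the others, so the sum mainly gives its level. Only 3 of the 9 passed the filter on low counts. No marker of the 11 lists had an adjusted p below 0.05 in edgeR's test, and those with an unadjusted p below 0.05 were Trem2, Cd9, Col1a1 and Spp1, above Control, and Lgals4, below it.

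Around Nlrp6, 16 other genes within 250000 bases on either side passed the filter, and their log2 fold changes ran from -0.27 to 0.70 with a median of 0.14. An unadjusted p below 0.05 was found for 2 of them, Ifitm2 and Sigirr, both higher, where the share over all genes was 7.43% in either direction and 4.04% higher. The 6 neighbours with a log2 fold change below 0 went no lower than -0.27, and a cause shared along the region was not tested. The 5 genes whose log2 CPM was most like that of Nlrp6 were 5033403H07Rik, Cops7b, Gatd1, Tmem243 and Gm17354. This likeness is Pearson's r over 4 libraries, and 70 of 11483 genes compared had an r above 0.99, so the order among them rests on little.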

How the data were processed

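Bulk RNA-seq of liver was analysed for 2 Control and 2 HuR hKO mice. The authors deposited whole-number counts of reads per gene, without normalization. The submitters' processing notes name RSEM and GRCm38, and the use of strand and the rounding of RSEM's estimates are not given in the sources used here. The 4 count columns were matched to mice by their headers, and 0 columns were left unused. Of 46603 identifiers, 46005 had a symbol in GENCODE M21, and the others held 0.0682% of the counts. All library pairs differed by more than sampling noise, with chi-square per degree of freedom from 21.2 to 32.7.

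Genes were kept with edgeR's filter (minimum count 10, total 15), scaled by TMM (factors 0.957 to 1.04), and compared with the quasi-likelihood test of edgeR 4.0.16 in R 4.3.3, with Benjamini-Hochberg adjustment over 13001 genes. The study's threshold was an unadjusted p below 0.05 and a fold of 1.8. A permutation test of 2 against 2 cannot go below p = 0.333. TPM used the union of exons of each gene, and log2 CPM for likeness used a pseudocount of 0.5 and a least mean of 1. Promoter windows came from RefSeq (GRCm38.p6), and motifs were searched with python 3.11.15 (pandas 2.3.3, numpy 2.4.6), with motifs chosen after the counts had been seen. Figures were drawn with matplotlib 3.10.9. The gene tests were tested on simulated data.

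The members and all lists were chosen with earlier results of these data known. Named were all members, Elavl1, pathway genes with an unadjusted p below 0.05, the 2 most abundant genes of each pathway list, the most abundant and the undetected markers, and the 5 genes most like Nlrp6. Il1r1, Krt19, Acta2, Marco, Adgre1, Slc40a1, Csf3r, S100a8, Naip2, Naip5, Naip6, the other markers with an unadjusted p below 0.05, Gm20319, Bco2, the neighbours and the 4 abundant genes lower than Nlrp6 were named after their values were seen. Alternatives were library totals alone, DESeq2 size factors, no filter, at least 10 counts in every library, the DESeq2 Wald test (1.42.0), limma-voom (3.58.1), the longest transcript as length, and leaving out each mouse. That the mice are separate animals is stated by their labels.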

Additional observations from a re-analysis of the deposited data

How the results depend on the processing

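Nlrp6 kept its direction under all 10 alternatives to the gene test, from -1.02 to -1.01 on the log2 scale when the scaling, filter or tool changed and from -1.10 to -0.94 with 1 mouse left out. The number of genes called over the whole table moved most. It was 3 as reported, 8 with library totals alone, 161 without a filter, 85 with the DESeq2 Wald test, and between 0 and 73 with 1 mouse left out, where the lone mouse of a group is assumed to vary like the others. Without Control mouse 1 it was 43, without Control mouse 2 it was 73, without mouse 3 it was 0 and without mouse 4 it was 7. Of the pathway genes, between 0 and 1 were called with 1 mouse left out. Pathway genes with an unadjusted p below 0.05 numbered 6 as reported, 8 without a filter and 2 with DESeq2. Over all genes the number was 966 as reported, 1466 without a filter and 575 with DESeq2. The members' median ran from 0.10 to 0.30 with 1 mouse left out. The log2 fold change of Casp1 ran from -0.70 to 0.29 and that of Il1b from -1.72 to 0.73, both reversing without mouse 4, and those of Nlrp12 (from -0.04 to 0.65) and Il18 (from -0.03 to 0.13) also took both signs. With 1 mouse left out, Casp4 ran from 0.06 to 0.78, Il1a from 0.06 to 0.50, Gsdmd from 0.17 to 0.33 and Il1rn from 0.65 to 1.61. With the longest transcript as length, 7 of 10 members kept their place in the order of TPM. The cause of these shifts was not tested beyond the smaller number of mice. No paired analysis was possible because the groups share no mouse numbers. Depth limits the 5 members with fewer than 30 counts in every library, and 2 mice a group limit every comparison.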
